A study of Rattus norvegicus with 11 samples.

Results

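The genes described here are 10 enzymes that make or consume NAD, chosen by name from the 32623 genes of a table of RNA levels in white blood cells (WBCs) of rats. They are Nampt, Nmnat1, Nmnat3, Naprt and Nadsyn1, which make NAD, and Cd38, Bst1, Sirt2, Sirt3 and Parp1, which consume it. All 10 were found, each on 1 row. The level of each was followed over all 11 samples and 3 groups, and beside the level of Nampt in the same samples.

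The rats were male Wistar animals aged 7 weeks. Collagen-induced arthritis (CIA) was raised in 4 of them by injecting bovine type II collagen in incomplete Freund's adjuvant, with a boost on day 7. Each CIA rat was bled at a time when Nampt was high by the authors' own PCR, called Nampt++ status, usually about day 8, and again when it was lower, called Nampt+ status, usually about day 14, both within a range of about 2 days. The controls were 3 healthy rats of the same strain. So the 4 Nampt++ and 4 Nampt+ samples come from the same 4 animals, status and day move together in them, and the status of a sample was itself set by a measurement of Nampt. WBCs were what remained of peripheral blood once red cells had been lysed, a mixture of neutrophils, monocytes, lymphocytes and whatever platelets and red cell precursors were carried along. In such bulk samples, fewer cells of a type and less RNA per cell cannot be told apart.

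NAD carries electrons in metabolism and is also broken down as a substrate by signalling enzymes, which release nicotinamide. In the salvage route NAMPT joins nicotinamide to phosphoribosyl pyrophosphate in the rate-limiting step, and the NMNAT enzymes turn the resulting mononucleotide into NAD. The Preiss-Handler route starts from nicotinic acid with NAPRT and ends with NADSYN1. CD38 and BST1 (also called CD157) are related glycohydrolases of the cell surface, SIRT2 and SIRT3 are NAD-dependent deacetylases of the cytosol and the mitochondrion, and PARP1 builds poly(ADP-ribose) at broken DNA. NAMPT is also released by blood cells as a cytokine known as visfatin, CD38 is a classical marker of activated lymphocytes and plasma cells, and CD157 is carried by neutrophils and monocytes.

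Upstream sequences are shown for 3 consumers whose levels followed different sets of genes in these samples, as described further on. RefSeq promoter windows on the GRCr8 build were matched by symbol for 8 of the 10 genes. Each is given 5′ to 3′ on the strand of the gene and covers the 250 bases before the listed start, except that of Bst1, which leaves out the bases inside the span of its gene entry and so runs over 226. Capitals mark matches on either strand to the GATA words AGATAA or TGATAA, the ETS word CCGGAAG or the Sp1 word GGGCGG.
Sirt2, chr1:93181222-93181471, plus strand: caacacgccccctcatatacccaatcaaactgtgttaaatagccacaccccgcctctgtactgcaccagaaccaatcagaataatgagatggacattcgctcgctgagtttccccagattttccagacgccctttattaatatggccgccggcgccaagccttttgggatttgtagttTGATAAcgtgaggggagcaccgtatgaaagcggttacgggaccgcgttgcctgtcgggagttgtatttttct
Bst1, chr14:71482672-71482897, minus strand: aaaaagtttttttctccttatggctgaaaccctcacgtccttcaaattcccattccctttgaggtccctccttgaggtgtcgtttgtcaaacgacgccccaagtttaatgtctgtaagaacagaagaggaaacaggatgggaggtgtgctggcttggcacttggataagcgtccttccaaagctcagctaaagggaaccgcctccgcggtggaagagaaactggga
Parp1, chr13:94839234-94839483, plus strand: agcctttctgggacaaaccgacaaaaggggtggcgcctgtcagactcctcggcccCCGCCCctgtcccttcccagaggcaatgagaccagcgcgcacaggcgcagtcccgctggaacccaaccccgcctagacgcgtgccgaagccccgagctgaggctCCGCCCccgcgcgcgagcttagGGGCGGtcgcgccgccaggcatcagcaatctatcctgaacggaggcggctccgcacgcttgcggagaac
The window of Sirt2 held 1 GATA word, whose first base lies 72 bases before the start, and no ETS or Sp1 word. That of Bst1 held none of the 3 motifs. That of Parp1 held 3 Sp1 words and 27 CpG dinucleotides, more than 92.3% of all windows, whose median was 5. Bst1 had 8 CpG and Sirt2 had 15. The window of Cd38, which lies inside the span of its gene entry and is not printed, also held 1 GATA word. Of 33469 windows of this length, 16.9% held a GATA word, 7.27% the ETS word and 30.5% the Sp1 word, so that each match is common and none marks a binding site. Cd38 and Bst1 lie side by side on chromosome 14 of GRCr8, both on the minus strand, with 0 protein-coding genes between them.

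The 11 libraries held 65340027 to 85819418 counts. Haemoglobin genes, 11 in number, took 6.84% to 42.8% of these counts, which leaves unequal room for all other genes. Levels are given as FPKM, fragments of a gene scaled to its transcript length and to library size, so that genes of different length can be set side by side. Counting error is small for all but the faintest gene: over the 11 samples Nmnat3 had 27 to 123 counts, Nadsyn1 196 to 822, and Bst1 3900 to 28233.

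The mean FPKM over 11 samples fell in the order Bst1 (121), Sirt2 (84.4), Nampt (25.5), Cd38 (23.0), Parp1 (14.5), Naprt (4.38), Sirt3 (3.26), Nadsyn1 (2.32), Nmnat1 (2.14) and Nmnat3 (0.541). The consumers Bst1 and Sirt2 thus stood above the salvage enzyme Nampt, while the enzymes that finish NAD synthesis were among the fainter of the 10. Bst1 had a higher mean than 94.6% of all genes whose own mean reached an FPKM of 1, Nampt than 78.9% and Nmnat1 than 14.9%. Neighbours in this order overlapped in their range over samples with 1 exception, Nmnat1 and Nmnat3. Within samples, Cd38 was higher than Parp1 in 11 of 11 and Sirt2 higher than Nampt in 10 of 11, but Bst1 was higher than Sirt2 in only 6 of 11.

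**Figure D1:**
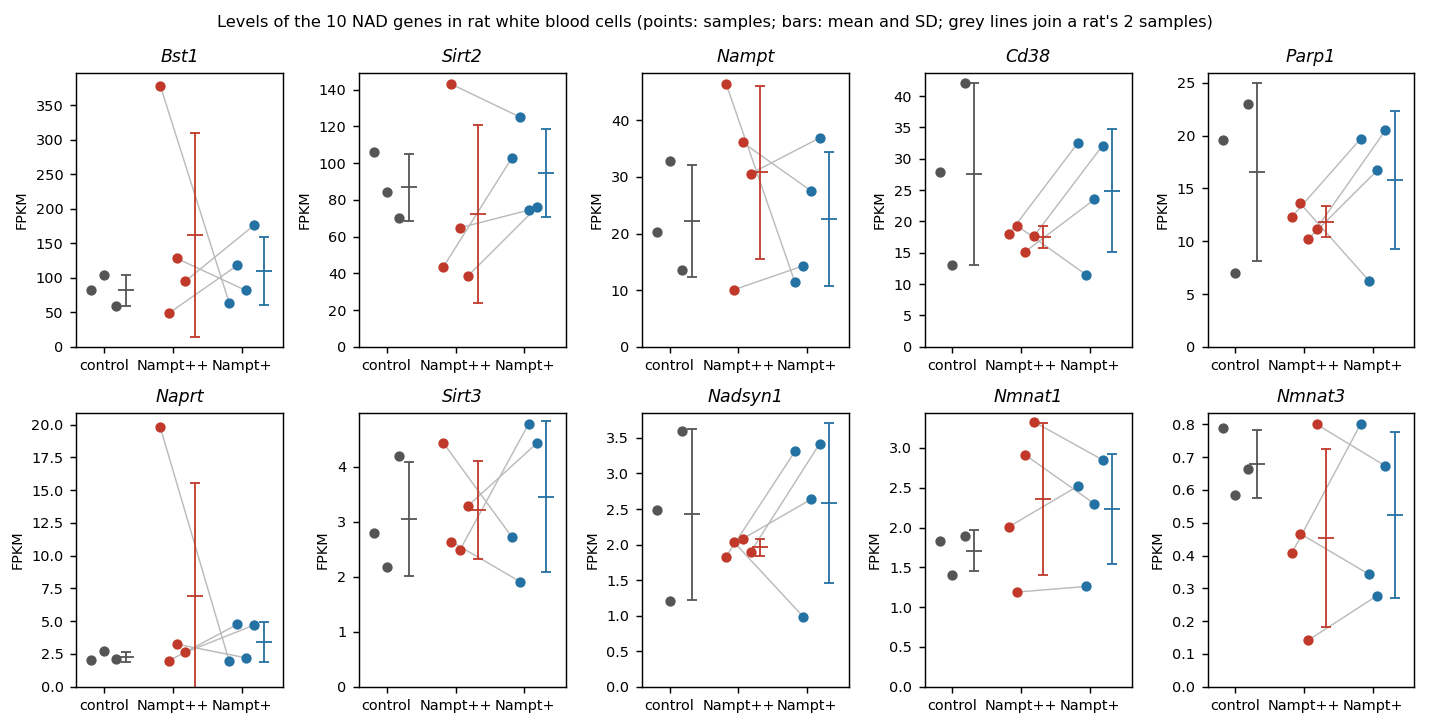
FPKM of the 10 NAD genes in 3 controls, 4 Nampt++ samples and 4 Nampt+ samples, with a linear axis from 0 for each gene and the genes in order of their mean. Points are samples, the bars beside them give the mean and SD of a group (the lower end of the Naprt bar in Nampt++ samples runs below 0 and is not drawn), and grey lines join both samples of a CIA rat. For each gene the 3 groups overlap, and 1 Nampt++ sample stands high in Bst1 (378) and Naprt (19.8).

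Nampt (ENSRNOG00000009754) is listed on chromosome 6 from 52122085 to 52156472, on a genome build that is not given in the sources used here, as for all table positions that follow. Its FPKM in Nampt++ samples was 46.5, 10.1, 36.1 and 30.6 for rats 1 to 4. In the Nampt+ samples of these rats it was 11.4, 14.3, 27.5 and 36.9. The controls had 20.3, 32.9 and 13.5. The lowest of all 11 values was the Nampt++ sample of rat 2 and the highest the Nampt++ sample of rat 1, and the groups overlapped throughout. RNA-seq therefore did not separate the samples by the Nampt level that their labels name, and Nampt++ and Nampt+ are used here as labels. In rats 2 and 4 Nampt ran against the labels, being higher at Nampt+ status. Whether any libraries were exchanged was not tested, and every difference between Nampt+ and Nampt++ samples rests on the labels as given. By the exact permutation test, two-sided as throughout, the difference in mean log2(FPKM + 1) was -0.40 for Nampt+ against Nampt++ samples (p = 0.571), 0.36 for Nampt++ samples against controls (p = 0.571) and -0.04 for Nampt+ samples against controls (p = 0.971). The smallest p that 4 samples against 4 or against 3 can give is 0.0286. This test does not use the pairing of CIA samples by rat.

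Nmnat1 (ENSRNOG00000015962, chromosome 5, 166409461 to 166430254) encodes the nuclear enzyme that completes NAD from the product of NAMPT. It had an FPKM of 2.01, 1.19, 2.91 and 3.33 in the Nampt++ samples of rats 1 to 4. The Nampt+ samples had 2.52, 1.26, 2.30 and 2.85. The controls had 1.83, 1.41 and 1.89, a range that lies inside that of either CIA group. Rat 4 was highest and rat 2 lowest at either status. The log2 fold change from edgeR's quasi-likelihood test was 0.40 ± 0.33 (SE) for Nampt++ samples against controls and 0.37 ± 0.24 for Nampt+ samples against controls, neither beyond the spread of the animals (exact permutation tests, p = 0.343 and 0.314).

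Nmnat3 (ENSRNOG00000013585, chromosome 8, 106317124 to 106429522), whose product is the mitochondrial form, was the faintest gene and lay under the mean FPKM of 1 required for testing across genes. Its FPKM was 0.407, 0.467, 0.142 and 0.80 in Nampt++ samples, 0.801, 0.343, 0.278 and 0.673 in Nampt+ samples, and 0.790, 0.584 and 0.663 in controls. The controls lay in the upper part of the CIA range, and the exact permutation test gave p = 0.257 for Nampt++ samples and 0.40 for Nampt+ samples against them. The lowest value, in the Nampt++ sample of rat 3, rests on 27 counts.

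Naprt (ENSRNOG00000007939, chromosome 7, 116922944 to 116926555) opens the Preiss-Handler route. In Nampt++ samples its FPKM was 19.8, 1.97, 3.25 and 2.62. In Nampt+ samples it was 1.95, 4.76, 2.21 and 4.70, and in controls 2.04, 2.74 and 2.11. The Nampt++ sample of rat 1 stood alone, with 3102 counts where the other 10 samples had 283 to 708, and the same rat had the lowest value of the series at Nampt+ status. The ratio of mean FPKM was 3.01 for Nampt++ samples against controls, with a log2 fold change of 1.44 ± 0.82 (SE) by edgeR that fell to 0.12 without that sample. The 3.01-fold ratio was within the spread between samples (exact permutation test, p = 0.543). Nampt+ against Nampt++ samples gave -0.71 ± 0.79, which turned to 0.61 without the same sample.

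Nadsyn1 (ENSRNOG00000020736, chromosome 1, 216985714 to 217013702), the last enzyme of that route, showed another pattern. Its FPKM in Nampt++ samples was 1.83, 2.03, 2.08 and 1.9, a narrow span with an SD of 0.116. In Nampt+ samples it was 3.31, 0.986, 2.64 and 3.42, and in controls 2.48, 1.20 and 3.60. From Nampt++ to Nampt+ status it was higher in rats 1, 3 and 4 and lower in rat 2. The edgeR log2 fold change was 0.37 ± 0.25 (SE), within the spread between samples (exact permutation test, p = 0.543).

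Bst1 (ENSRNOG00000003064, chromosome 14, 71798651 to 71814523) was the most abundant of the 10. Its FPKM in Nampt++ samples was 378, 48.4, 128 and 94.7. In Nampt+ samples it was 63.8, 118, 81.7 and 176, and in controls 82.9, 104 and 59.2. The Nampt++ samples held both the highest and the lowest value of the series, in rats 1 and 2, and the controls overlapped with both CIA groups. The mean was 1.98 times that of controls in Nampt++ samples, with a log2 fold change of 0.81 ± 0.66 (SE) by edgeR that became 0.03 without the Nampt++ sample of rat 1 (exact permutation test over all 7 samples, p = 0.514). Within rats, Bst1 was lower at Nampt+ status in rats 1 and 3 and higher in rats 2 and 4, which is the division that Nampt and Naprt showed.

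Cd38 (ENSRNOG00000003069, chromosome 14, 71715269 to 71754672), the neighbour of Bst1, had an FPKM of 18.0, 19.3, 15.2 and 17.6 in Nampt++ samples. The Nampt+ samples had 32.5, 11.5, 23.5 and 32.1, and the controls 27.8, 13.0 and 42.0. The Nampt++ values were close together and lay inside the wider range of both other groups. It was the only one of the 10 with an unadjusted p under 0.05 in any comparison, at a log2 fold change of 0.50 ± 0.20 (SE) for Nampt+ against Nampt++ samples (edgeR, p = 0.0377, Benjamini-Hochberg adjusted p = 0.9996; exact permutation test on log2(FPKM + 1), p = 0.286). Cd38 was higher at Nampt+ status in rats 1, 3 and 4 and lower in rat 2, and its mean ratio of 1.42 stayed under the fold of 2. Against controls, the Nampt++ samples had -0.58 ± 0.26 (edgeR, p = 0.0584; exact permutation test, p = 0.314).

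Parp1 (ENSRNOG00000003084, chromosome 13, 98857177 to 98889716) had an FPKM of 12.3, 13.6, 10.2 and 11.2 in Nampt++ samples, 19.7, 6.26, 16.7 and 20.5 in Nampt+ samples, and 19.6, 6.98 and 23.0 in controls. As with Cd38, the Nampt++ samples were alike, and the Nampt+ sample of rat 2 and control 2 were the lowest. The log2 fold change was 0.38 ± 0.22 (SE) by edgeR for Nampt+ against Nampt++ samples and -0.41 ± 0.30 for Nampt++ samples against controls (exact permutation test, p = 0.543 and 0.457).

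Sirt2 (ENSRNOG00000020102, chromosome 1, 86948918 to 86971952) was second in abundance. Its FPKM was 43.3, 143, 64.8 and 38.6 in Nampt++ samples, 103, 125, 74.4 and 76.0 in Nampt+ samples, and 106, 84.3 and 70.0 in controls. Rat 2 was highest in Sirt2 at either status, and rats 1 and 4 had the lowest values of the series at Nampt++ status. For Nampt+ against Nampt++ samples the log2 fold change was 0.54 ± 0.59 (SE) by edgeR (exact permutation test, p = 0.257), and rat 2 decided its size: 1.25 if its Nampt++ sample was dropped, -0.02 if its Nampt+ sample was. Sirt3 (ENSRNOG00000013828, chromosome 1, 213613513 to 213635546) had an FPKM of 4.44, 2.64, 2.48 and 3.29 in Nampt++ samples, 2.72, 1.91, 4.78 and 4.43 in Nampt+ samples, and 2.79, 2.18 and 4.20 in controls. The 3 group means of Sirt3, 3.21, 3.46 and 3.06, were the closest to each other among the consumers, and no difference exceeded 0.20 ± 0.25 on the log2 scale.

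**Figure D2:**
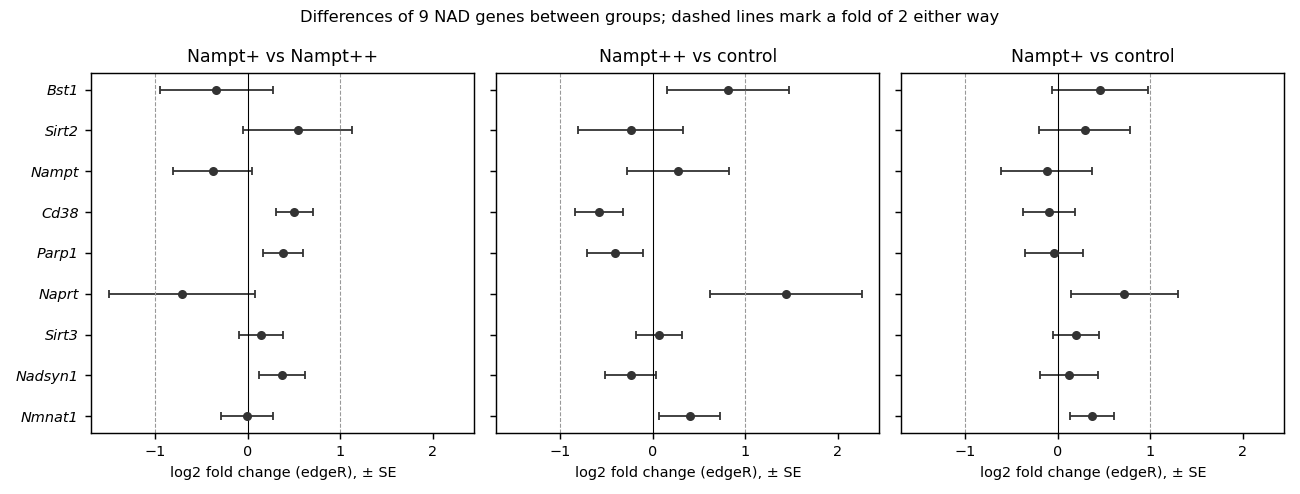
Log2 fold change by edgeR with its SE for the 9 NAD genes tested, in 3 comparisons; positive values are higher in the group named first, and dashed lines mark a fold of 2. The bars of SE are wide for Naprt (1.44 ± 0.82 for Nampt++ samples against controls) and narrow for Cd38 (0.50 ± 0.20 for Nampt+ against Nampt++ samples).

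None of the genes of NAD synthesis and consumption was called between groups. To be called, a gene had to differ by more than a fold of 2 in mean FPKM (ratio above 2 or below 0.5) with p below 0.05 before adjustment, the thresholds of the study, and 9 of the 10 genes passed the filter on low values. Between Nampt+ and Nampt++ samples 0 of the 9 were called where 0.642% of all tested genes were, and 1, Cd38, had an unadjusted p under 0.05 where 2.28% of all genes did. Between Nampt++ samples and controls 0 were called against 0.686% of all genes, and between Nampt+ samples and controls 0 against 0.497%, with 0 unadjusted p under 0.05 in either, where 1.57% and 0.87% of all genes had one. By edgeR's adjusted p, 0 genes of the whole table differed in any comparison (0% of those tested). With shares so low, 0 of 9 is what the background alone would leave. limma and DESeq2 also called 0 of them in each comparison. The median log2 fold change of the 9 was 0.14, 0.07 and 0.20 in these comparisons, beside -0.00, 0.00 and -0.00 over all tested genes. The FPKM ranges of 2 groups were apart in 0 of the 10 genes, where they were apart in 0.41%, 1.1% and 0.444% of all tested genes in the same order of comparisons, and the exact permutation p ranged from 0.257 to 0.971. With 4 or 3 rats in a group, the SE of a log2 fold change lay between 0.20 for Cd38 and 0.82 for Naprt.

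The levels of these genes nevertheless varied widely from sample to sample, from 2.50-fold between the lowest and the highest sample for Sirt3 to 10.1-fold for Naprt, and sets of them varied together. Pearson correlations below are of log2(FPKM + 1). Since 8 of the 11 samples are pairs from 4 rats, the values over 11 samples are descriptions, and the test was made over 7 rats, with the mean of both samples for a CIA rat, by an exact permutation over 5040 arrangements for every gene whose mean reached an FPKM of 1. All genes of a sample share 1 library, so a few abundant genes that take more of it lower the FPKM of the rest.

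Bst1 followed Nampt most closely of the 9 other genes, with r = 0.79 and rho = 0.89 over 11 samples. Naprt had r = 0.57, Nmnat1 0.49 and Sirt3 0.36. The remaining 5 had negative values, namely Nadsyn1 (-0.16), Parp1 (-0.21), Nmnat3 (-0.25), Cd38 (-0.28) and Sirt2 (-0.73). Positive values thus came from 4 of 9 genes, where 64.9% of 11241 genes had a positive r with Nampt, at a median of 0.14 and with 5% of genes under -0.38 and 5% over 0.81. Bst1 was exceeded by 5.91% of all genes, so many genes followed Nampt as closely. Sirt2 was at the other end, with only 0.792% of genes lower.

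**Figure D3:**
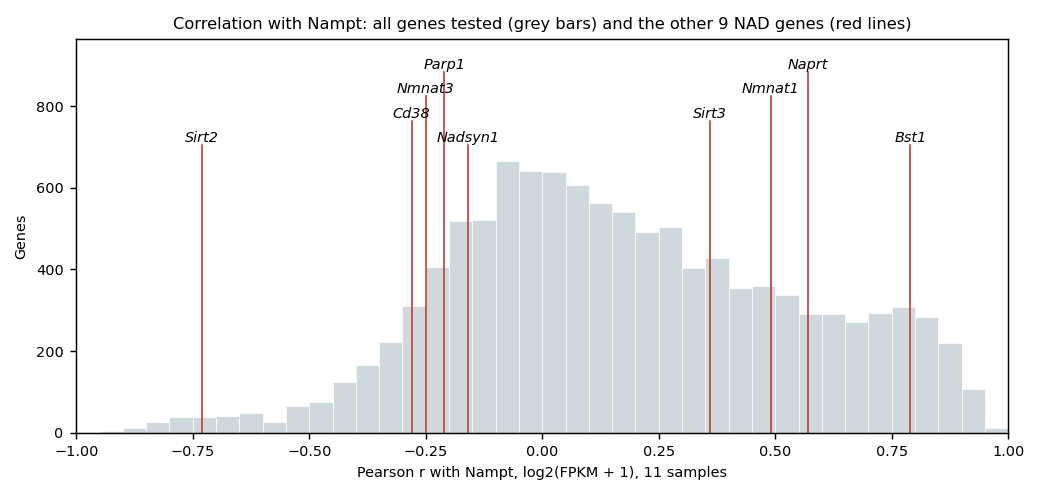
Number of genes (grey bars, 11241 genes) by Pearson r with Nampt over 11 samples, in steps of 0.05, with red lines at the r of the 9 other NAD genes. Bst1 (0.79) lies in the upper tail, Sirt2 (-0.73) in the sparse lower tail, and the others between them.

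Over the 7 rats, r with Nampt was 0.71 for Bst1 (rho 0.75; exact permutation test, p = 0.075, adjusted p over all genes 0.65) and -0.60 for Sirt2 (rho -0.68; exact permutation test, p = 0.153, adjusted p 0.855). Nmnat1 had 0.58 (rho 0.61; exact permutation test, p = 0.18) and the other 5 tested genes lay between -0.33 and 0.19 (exact permutation tests, p from 0.466 to 0.863). No gene of the table reached an adjusted p under 0.05 in this test over 7 rats by exact permutation, where the smallest was 0.36, although 946 genes (8.42%) had an unadjusted p under 0.05. None of the 9 genes set against Nampt had one.

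Without the samples farthest from the median of Nampt, which were the Nampt++ samples of rats 1 and 2, r was 0.69 for Bst1, 0.32 for Naprt, 0.41 for Nmnat1 and -0.54 for Sirt2. Leaving out 1 sample at a time kept Bst1 between 0.74 and 0.86 and Sirt2 between -0.81 and -0.65. The values depended on the scale: with log2 CPM (counts scaled to library size by TMM) in place of FPKM, r with Nampt was -0.74 for Cd38, -0.70 for Parp1 and -0.67 for Nadsyn1, and only -0.30 for Sirt2. With haemoglobin genes left out and FPKM rescaled, Bst1 was at 0.74, Naprt at 0.50, Nmnat1 at 0.19 and Sirt3 at -0.07. Cd38 (-0.65), Parp1 (-0.58) and Nadsyn1 (-0.55) were then more negative than Sirt2 (-0.52), so on either of these scales Sirt2 was not the gene most opposite to Nampt.

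Between one another the 10 genes formed 2 tight sets over 11 samples. Cd38 and Parp1 rose and fell together with r = 0.97 and rho = 0.99 over 11 samples and r = 0.97 over 7 rats, and leaving out any sample kept r between 0.96 and 0.98. Only 0.0801% of tested genes followed Cd38 as closely. The ratio of their FPKM stayed between 1.40 and 1.86 in all samples, while each gene on its own spanned 3.66-fold and 3.67-fold. Nadsyn1 joined them, with r = 0.96 with Cd38 and 0.96 with Parp1. Sirt3 was near them over 7 rats, with r = 0.92 with Nadsyn1, 0.80 with Cd38 and 0.79 with Parp1. Over 11 samples these values were 0.64, 0.60 and 0.66.

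The second set was Naprt and Bst1, with r = 0.93 and rho = 0.91 over 11 samples. Only 0.276% of tested genes followed Naprt as closely as Bst1 did, and r was 0.81 over 7 rats and 0.87 once the Nampt++ sample of rat 1 was dropped. The neighbours Cd38 and Bst1 did not share a pattern, with r = -0.31 and an FPKM ratio of Cd38 to Bst1 that ran from 0.0477 in the Nampt++ sample of rat 1 to 0.709 in control 3, a 14.9-fold range. The ratio of Nampt to Sirt2 spanned 15.2-fold, from 0.0707 to 1.08, with both ends among Nampt++ samples. None of these ratios differed between groups beyond the spread between samples, with exact permutation p from 0.257 to 0.971 over 7 ratios and 3 comparisons.

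**Figure D4:**
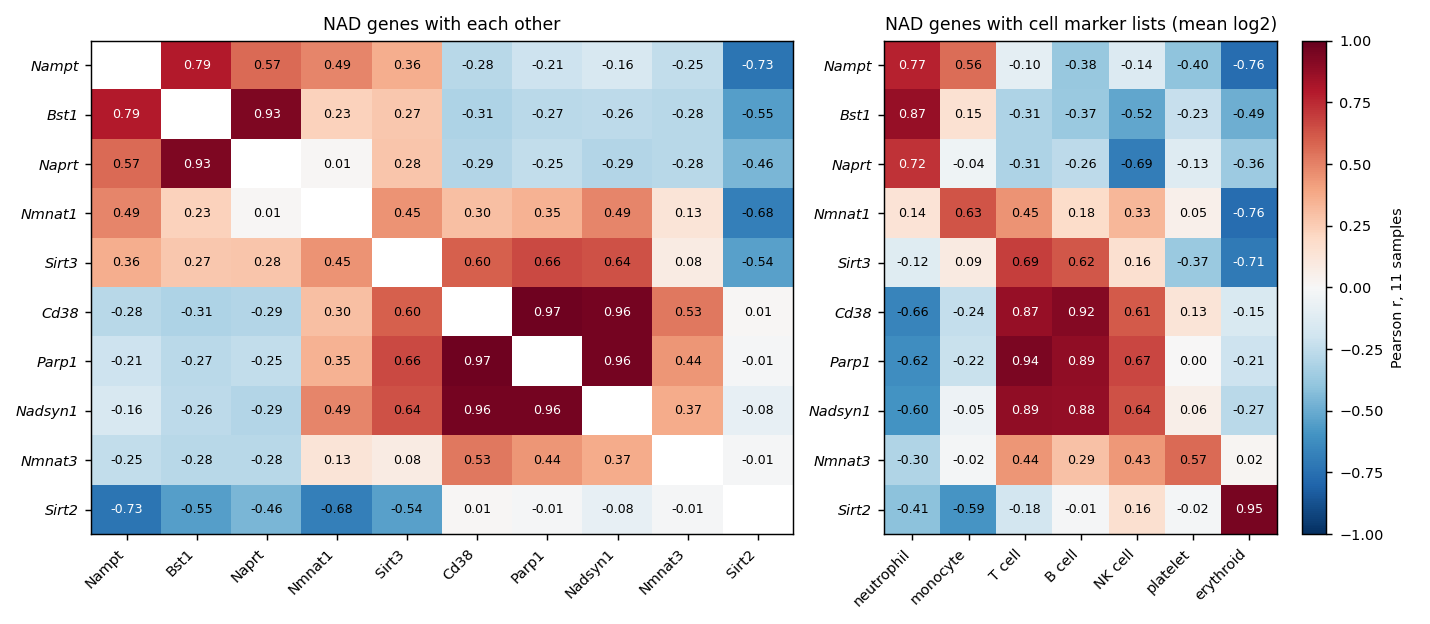
Pearson r of log2(FPKM + 1) over 11 samples, between the 10 NAD genes (left) and of each with the mean of 7 lists of cell marker genes (right), from -1 in blue to 1 in red. Cd38, Parp1 and Nadsyn1 form a block of 0.96 to 0.97 that also has high values with T and B cell markers, Bst1 and Naprt (0.93) have theirs with neutrophil markers, and Sirt2 with erythroid markers (0.95).

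Marker genes of blood cells moved with these sets. Summed FPKM of 12 neutrophil markers, such as S100a8 and Csf3r, ran from 2170 to 14877 in controls, 3046 to 41705 in Nampt++ samples and 3928 to 16501 in Nampt+ samples, with the highest value in the Nampt++ sample of rat 1. Most of this sum was S100a8 and S100a9, at 12479 and 25724 in that sample. Ngp, Camp, Lcn2 and Fpr1 were highest in other samples. The mean log2 level of the 12 markers, in which each counts alike, had r = 0.87 with Bst1, 0.77 with Nampt and 0.72 with Naprt. With Bst1, 12 of 12 markers were positive. It had -0.66 with Cd38 and -0.62 with Parp1, with 0 of 12 markers positive. All 12 were above 0 in every sample, and their part in these results was not tested.

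Lymphocyte markers followed the other set. T cell markers, 10 of 10 found and above 0 throughout, summed to 556 to 1356 in controls, 690 to 1058 in Nampt++ samples and 387 to 1229 in Nampt+ samples. B cell markers, 7 of 8 found, summed to 163 to 770, 253 to 351 and 187 to 396 in the same groups. Parp1 had r = 0.94 with T cell markers, Cd38 0.92 with B cell markers, and Nadsyn1 0.89 and 0.88 with each. As with Cd38, Parp1 and Nadsyn1, the T cell sum was lowest in the Nampt+ sample of rat 2, and the share of these cells in the differences of Cd38 between groups was not tested.

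Sirt2 followed red cell precursors. The 7 erythroid markers found, among them Alas2 and Ahsp, were above 0 in every sample and summed to 625 to 1344 in controls, 288 to 1766 in Nampt++ samples and 564 to 2168 in Nampt+ samples. Sirt2 had r = 0.95 with their mean log2 level over 11 samples and 0.96 over 7 rats, with 7 of 7 markers positive, and r = 0.94 with the haemoglobin share of counts. With haemoglobin genes left out r was 0.97. Nampt (-0.76), Nmnat1 (-0.76) and Sirt3 (-0.71) ran against the erythroid markers, with 0 of 7 markers positive for each, and with haemoglobin genes left out these values were -0.54, -0.48 and -0.38. The part of these cells in the opposite course of Sirt2 and Nampt was not tested.

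**Figure D5:**
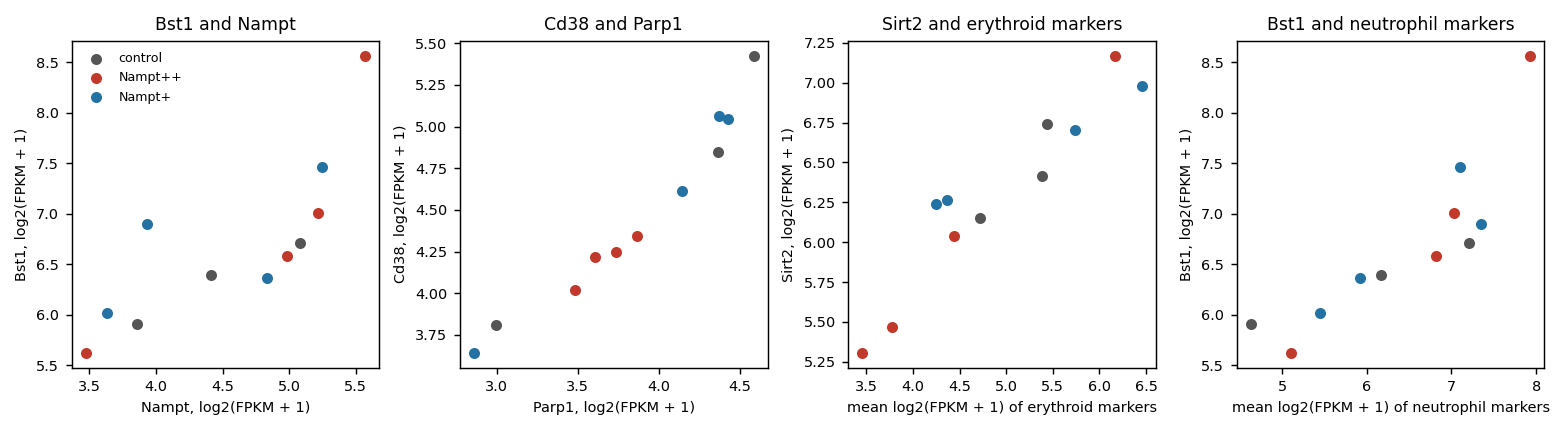
Levels on the log2(FPKM + 1) scale in 11 samples, coloured by group, for Bst1 against Nampt, Cd38 against Parp1, Sirt2 against the mean of 7 erythroid markers and Bst1 against the mean of 12 neutrophil markers. In each panel the 3 groups lie along the same course, with r = 0.79, 0.97, 0.95 and 0.87. For Cd38 against Parp1 the Nampt++ samples lie close together within it.

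Values for the other marker lists were mixed. Monocyte markers (9 of 10 found, summed FPKM 4223 to 13852 over the series, Ms4a7 listed at 0 in most samples) had r = 0.63 with Nmnat1 and 0.56 with Nampt over 11 samples. Over 7 rats they had r = 0.84 with Nampt, where neutrophil markers had 0.75. Of the single markers, 6 of 9 for monocytes and 11 of 12 for neutrophils were positive with Nampt. With haemoglobin genes left out, r with Nampt over 11 samples was 0.39 for monocyte markers and 0.78 for neutrophil markers. NK cell markers (7 found, 60.0 to 418) had -0.69 with Naprt and 0.67 with Parp1, or -0.56 and 0.58 over rats, and Klrb1 among them was at or near 0. Neutrophil markers had 0.45 with Naprt over rats. Platelet markers (8 found, 1798 to 15985) had 0.57 with Nmnat3. Basophil and mast cell markers (5 of 6 found, 7.28 to 137) had 0.56 with Nadsyn1, and over rats 0.81 with Nmnat1. The part of these cells in the results was not tested.

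By r with Nampt over 11 samples in the 4929 genes whose mean reached an FPKM of 10, the genes most like Nampt were Pstpip1 (0.98), Tagln2 (0.98), Iqsec1 (0.97), Ifih1 (0.97), Cyld (0.96), Diaph1 (0.96), Prr29 (0.96), LOC103692471 (0.95) and Fmnl1 (0.95). Pstpip1, Tagln2, Diaph1 and Fmnl1 encode proteins of the actin cytoskeleton, Ifih1 a sensor of viral RNA and Cyld a deubiquitinase. Pstpip1 ran from an FPKM of 45.2 to 139. None of these was another enzyme of NAD metabolism, and Bst1 lay well outside them. The 5 genes most opposite to Nampt were Cat (-0.95), which encodes catalase, Ube2o (-0.91), LOC679539 (-0.88), Bcas2 (-0.87) and Psmf1 (-0.87).

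Another 48 genes of NAD metabolism were listed, of which 44 were found by symbol and 28 had a mean FPKM of at least 1. Sirt1, Parp4, Tnks2 and Adprs were not found under these symbols, although AABR07044925 is described in the table as sirtuin 1 and had an FPKM of 5.19 to 13.0. With the first 10, 36 of 54 genes were tested between Nampt+ and Nampt++ samples, 36 between Nampt++ samples and controls and 38 between Nampt+ samples and controls. In each comparison 0 were called, with 1, 0 and 0 at an unadjusted p under 0.05 and medians of -0.02, -0.04 and -0.04 on the log2 scale. By route, the median for Nampt++ samples against controls was lowest, at -0.36, for 4 glycohydrolases and ADP-ribosyltransferases taken as 1 list (1 positive). It was -0.31 for 3 genes of synthesis from tryptophan (0 positive). It reached 0.40 for 3 salvage genes (3 positive) and 0.60 for both Preiss-Handler genes (1 positive). The medians of the other 4 routes with tested genes lay between -0.14 and -0.01.

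The salvage gene Pnp, for purine nucleoside phosphorylase, which frees nicotinamide from its riboside, was the only gene of these lists among those past the filter on low values whose samples did not overlap between 2 groups. Its FPKM was 163, 65.4, 75.3 and 89.2 in Nampt++ samples and 60.8, 60.4 and 63.4 in controls, where 1.1% of all tested genes did not overlap. The log2 fold change was 0.59 by edgeR (p = 0.0936), and the exact permutation test gave p = 0.0857. In Nampt+ samples it was 65.2, 50.8, 74.0 and 94.6, overlapping both. Pnp was not called and was singled out after its values were seen. Under the filter, Nnmt, which methylates nicotinamide, was also apart between Nampt++ and Nampt+ samples, and was singled out after its values were seen. Its FPKM was 0.0879, 0, 0 and 0 in Nampt++ samples and 0.315, 0.131, 0.213 and 0.553 in Nampt+ samples. The exact permutation test, which does not use the pairing by rat, gave p = 0.0286, the smallest these samples can give. The share of genes under the filter that were apart is not given here. Nnmt was higher at Nampt+ status in 4 of 4 rats, but no sample had more than 45 counts, and controls had 0.351, 0 and 0, overlapping both.

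The first step of NAD synthesis from tryptophan was barely detected in these cells. Its enzyme genes were listed at 0 in all samples (Tdo2), in 10 of 11 (Ido1) and in 9 of 11 (Ido2). Acmsd, Nmnat2, Nmrk2 and Art3 were also listed at 0 in all samples. Nmrk1, Kmo, Haao, Parp11, Parp16, Slc12a8, Sarm1, Aox1 and Nnmt stayed under a mean FPKM of 1 over 11 samples, although Kmo had a mean of 1.21 in controls. Singled out after their values were seen, Qprt, which feeds quinolinic acid into NAD, was present at 2.03 to 13.5, and Nadk, which phosphorylates NAD to NADP, was the most abundant of the others at 58.1 to 219.

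Counting AABR07044925, 9 of 29 other NAD genes (31.0%) had an r of at least 0.6 with Nampt, beside 15.9% of all tested genes. Named after their values were seen, they were Parp14 (0.87), Nadk (0.86), Tiparp (0.86), Tnks (0.77), Parp10 (0.73), Pnp (0.68), Parp12 (0.68), Parp9 (0.66) and Parp8 (0.61). Of these, 7 belong to the family of Parp1, which itself had -0.21. Among the genes first set against Nampt, only Bst1 (0.79) reached 0.6, with Naprt (0.57) next. The NAD lists were chosen with earlier results known, and values over rats or on other scales are not given for these 29. The share of 31.0% is therefore a description over 11 samples. Parp14, Parp9, Parp10 and Parp12 are known as genes induced by interferon. Nadk in Nampt++ samples was 219, 59.8, 188 and 203, in Nampt+ samples 67.0, 122, 96.2 and 151, and in controls 67.3, 161 and 58.1, so it too was lowest among Nampt++ samples in rat 2 and did not separate the groups (exact permutation test, p from 0.2 to 0.6).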

How the data were processed

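WBC RNA of 4 CIA rats, each at Nampt++ and Nampt+ status, and of 3 controls was sequenced as poly(A) libraries in paired-end reads. The extraction protocol in the labels speaks of retinas, and the samples were taken as WBCs, as their sources and the study's methods say. The submitters' processing notes name Cutadapt 1.9, HISAT2 2.0.4 and StringTie 1.3.4. The genome build, the read counter and its use of strand are not given in the sources used here. The authors deposited raw counts per gene and FPKM values, whose 0.0001 was read as 0.

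edgeR 4.0.16 (quasi-likelihood test, TMM, R 4.3.3) was run on the deposited counts, a pair of groups at a time, over genes whose mean in the compared samples reached an FPKM of 1, with Benjamini-Hochberg adjustment over all genes tested. The scripts were tested on simulated data. limma 3.58.1 on log2(FPKM + 1), DESeq2 1.42.0 and other settings were alternatives. Exact permutation tests (scipy 1.17.1) were two-sided with a pseudocount of 1, as were those for correlation over rats. Samples of a CIA rat are paired by animal (labels and methods). Their deviations from group means correlated by -0.16, -0.18, 0.16 and 0.13 for rats 1 to 4. No samples of a group were alike within counting error (chi-square per degree of freedom at least 376). p-values against controls and over rats measure the spread between these animals. Those between Nampt+ and Nampt++ samples treat the samples of a rat as independent. The exceptions, given further on, are a sign-flip permutation within rats and a fit with the rat as a replicate block. The NAD genes and the lists of cell markers were chosen with earlier results of these data known. Besides the 10 genes, the rule names NAD genes that are called, absent or under a mean FPKM of 1, and the 10 most like and 5 most unlike Nampt, 1 of which is not reported here. Genes outside this rule are marked as such.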

Additional observations from a re-analysis of the deposited data

Results flagged for a closer look

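The FPKM of Naprt in the Nampt++ sample of rat 1 was 19.8, and its gap to the next of the 4 Nampt++ samples took 0.928 of the group's range, above Dixon's critical value for 4 samples. It was the only value to stand apart in this way among 20 groups examined (10 genes in each of the 2 CIA groups), and chance flags about 1 in 20 groups. The same sample had the highest Bst1 (378) and the highest summed neutrophil markers (41705), and their part was not tested.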

How the results depend on the processing

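Under every alternative tried, 0 of the genes tested among the first 10 were called in each comparison. At a mean FPKM of at least 10, only Nampt, Bst1, Cd38, Sirt2 and Parp1 of them were tested. Of the 9 genes set against Nampt, 4 kept a positive r with it when any 1 sample was left out. With haemoglobin genes left out 3 were positive, and 6 over the CIA samples alone. The number of all genes called, 72 for Nampt+ against Nampt++ samples, 77 for Nampt++ samples against controls and 56 for Nampt+ samples against controls, was 295, 306 and 261 with no filter and 19, 25 and 14 at a mean FPKM of at least 10, where fewer genes are tested. Nampt++ samples against controls gave 145 with limma and 121 with DESeq2, and the cause was not tested. Leaving out 1 sample gave 58 to 165, 53 to 462 and 49 to 136 genes, the highest without the Nampt+ sample of rat 2 in the first and without control 2 in both others. With the rat as a replicate block, 56 genes were called between Nampt+ and Nampt++ samples, Nmnat1 turned to 0.05 and the other 8 of the 9 tested genes kept their direction. The sign-flip permutation within rats gave p = 0.75 for Nampt and 0.375 for Cd38. Over the first 10 genes its p ran from 0.25 for Sirt2 to 0.875, and 4 rats can give no p under 0.125. Upper quartile scaling turned Nmnat1 to 0.03.

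With 1 sample left out, log2 fold changes between Nampt+ and Nampt++ samples that turned direction ran from -0.19 to 0.14 for Nmnat1, -1.33 to 0.61 for Naprt, -0.72 to 0.44 for Bst1 and -0.02 to 1.25 for Sirt2. Between Nampt++ samples and controls they ran from -0.09 to 0.92 for Nampt, -0.95 to 0.01 for Sirt2 and -0.09 to 0.15 for Sirt3. Between Nampt+ samples and controls they ran from -0.48 to 0.53 for Nampt, -0.10 to 0.30 for Nadsyn1, -0.32 to 0.13 for Cd38, -0.27 to 0.47 for Sirt2 and -0.31 to 0.16 for Parp1. The difference of Nampt in log2(FPKM + 1) between Nampt+ samples and controls ran from -0.34 to 0.27, and was above 0 without control 2 (0.27), the Nampt+ sample of rat 1 (0.22) or that of rat 2 (0.12).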
